A study of Homo sapiens with 9 samples.

Results

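The transcripts of 9 genes that sit downstream of RAS and the ERK MAP kinases were followed in human fibroblasts driven into senescence by oncogenic RAS. They were the ETS-family transcription factors ETV1, ETV4, ETV5, ETS1, ETS2 and ELK3, and the MAPK-induced genes PHLDA1, IER3 and EPHA2. The genes were chosen by symbol, with earlier results of these data known. All 9 were found among the 13745 genes of the deposited table. All 9 passed the filter on low values, which left 12481 genes for the tests.

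The cells were BJ fibroblasts, a human line immortalised with telomerase, and RNA was selected by its polyA tail before sequencing. In 4 libraries the non-coding transcript lncRNA-OIS1 was depleted before RASG12V was activated, by a different short hairpin RNA in each (hairpins 32-2, 32-3, 32-8 and 32-9, here replicates 1 to 4). The tumour suppressor p53 was knocked down in 1 RASG12V library, and BRD7, a bromodomain protein, in another. The 2 senescent libraries had RASG12V activated and carried non-targeting hairpin 500 (replicate 1) or 507 (replicate 2). The control was a single library with non-targeting hairpin 500 and no RAS activation. The control is called untreated in the design text, but its label, like the other 8, gives 4-OHT for 14 days. Within the senescent and lncRNA-OIS1 groups each library carried its own hairpin, so p-values measure the spread between hairpins. Groups of a single library borrow that spread. No hairpin is repeated within a group, so differences between cultures of the same hairpin were not measured.

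Each value was a normalised read count. All 9 columns share one distribution (floor 20, median 340.1), so depth cannot be read from them and counting error is not known. BRD7 stood at 94.6 in its knockdown library, 16.2% of the senescent mean of 582.7. Of 10 fibroblast markers, 10 were in the table, and their summed level was 153197 to 201076 in the knockdown libraries and 137173 and 119638 in the senescent libraries, against 447745 in the control. Of those markers 7 fell in senescent cells (limma, adjusted p under 0.05), led by DCN and LUM. Epithelial markers were few, with 3 of 6 in the table and KRT18 carrying most of a sum of 801.4 to 2105.3 in the knockdown libraries, 1892.8 and 1617.5 in the senescent libraries and 3686.7 in the control. Only 2 of 6 leukocyte markers and 1 of 5 endothelial markers were in the table, and their sums did not exceed 266.9 in any library. LncRNA-OIS1 replicate 4 was the highest or lowest of the 4 hairpins for 70.1% of all genes tested, against 44.1%, 36.4% and 43.9% for replicates 1 to 3. The part of any of these in the results below was not tested. In bulk RNA, fewer cells of a type and less RNA per cell cannot be told apart.

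Active RAS switches on the kinase cascade RAF, MEK and ERK, and ERK then phosphorylates transcription factors in the nucleus. Many ETS factors, which recognise a GGAA core in DNA, are themselves ERK substrates, and several of their genes are transcribed in response to ERK. ETV1, ETV4 and ETV5 form the PEA3 group, whose genes are held down by the repressor CIC until ERK signalling relieves it. ETS1 and ETS2 are activated by ERK phosphorylation next to their pointed domain, and both are known in human fibroblasts as activators of the gene for the CDK inhibitor p16. ELK3 is a ternary complex factor that binds DNA together with SRF and turns from repressor to activator when phosphorylated. PHLDA1, IER3 and EPHA2 are widely used as readouts of the pathway.

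Promoter sequence was available for 5 of the 9 genes in the RefSeq table of build GRCh38.p14, as 12 windows that run from 250 bases before a transcription start to 50 bases after it. CIC binds the octamers TGAATGAA and TGAATGGA, so both were searched on either strand. One of 6 ETV1 windows held TGAATGGA, with its first base 125 bases before the start, and the single EPHA2 window held TGAATGAA, 34 bases before it. The octamer is in capitals in both sequences, which are shown because they were the only ones of the 12 windows that held a CIC octamer.
ETV1, chr7:13991376-13991675, minus strand: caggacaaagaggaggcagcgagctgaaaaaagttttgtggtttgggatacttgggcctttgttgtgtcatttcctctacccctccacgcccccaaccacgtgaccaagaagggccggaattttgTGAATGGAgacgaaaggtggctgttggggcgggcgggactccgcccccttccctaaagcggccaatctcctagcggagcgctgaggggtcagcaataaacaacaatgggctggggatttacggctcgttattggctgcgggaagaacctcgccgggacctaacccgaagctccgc
EPHA2, chr1:16156020-16156319, minus strand: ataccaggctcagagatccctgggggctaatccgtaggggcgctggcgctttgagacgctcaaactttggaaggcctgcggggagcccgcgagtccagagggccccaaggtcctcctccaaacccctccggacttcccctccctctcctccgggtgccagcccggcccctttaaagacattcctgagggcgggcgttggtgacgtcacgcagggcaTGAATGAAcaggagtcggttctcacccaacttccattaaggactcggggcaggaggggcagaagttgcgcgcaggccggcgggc
Of 35116 windows over all genes, 1.65% held TGAATGAA, 1.03% TGAATGGA and 2.63% at least one of them. Counted by gene, whatever its number of windows, 3.22% of 27305 genes had at least one of them. The EPHA2 window also held the cAMP response element TGACGTCA, which 1.85% of all windows carry. The ETS site CCGGAAGT (4.14% of all windows) and the AP-1 site TGANTCA (7.71%) were in none of the 12 windows. A match is a description of the letters in these windows and not of binding, and the remaining 10 windows of ETV1, ETS2, ELK3 and PHLDA1 held neither CIC octamer.

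RAS activation was followed by higher levels of most of the 9 genes. The level in the control was below that in every one of the 8 RAS libraries for 7 of them, namely ETV1, ETV4, ETV5, ELK3, PHLDA1, IER3 and EPHA2, where 25.3% of all genes tested had this order. The exceptions were ETS1 and ETS2, and none of the 9 had the reverse order, which 23.1% of all genes had. Between senescent and control libraries, limma called 3 genes higher (ETV1, PHLDA1 and ETV4, against 7.95% of all genes) and 1 lower (ETS1, against 7.10%), so that 4 of 9 were called where 15.0% of all genes were. The median log2 change over the 9 genes was 0.74, beside 0.03 over all genes tested. Because the genes were chosen with earlier results known, these shares, here and below, describe the members and are not a test.

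**Figure D1:**
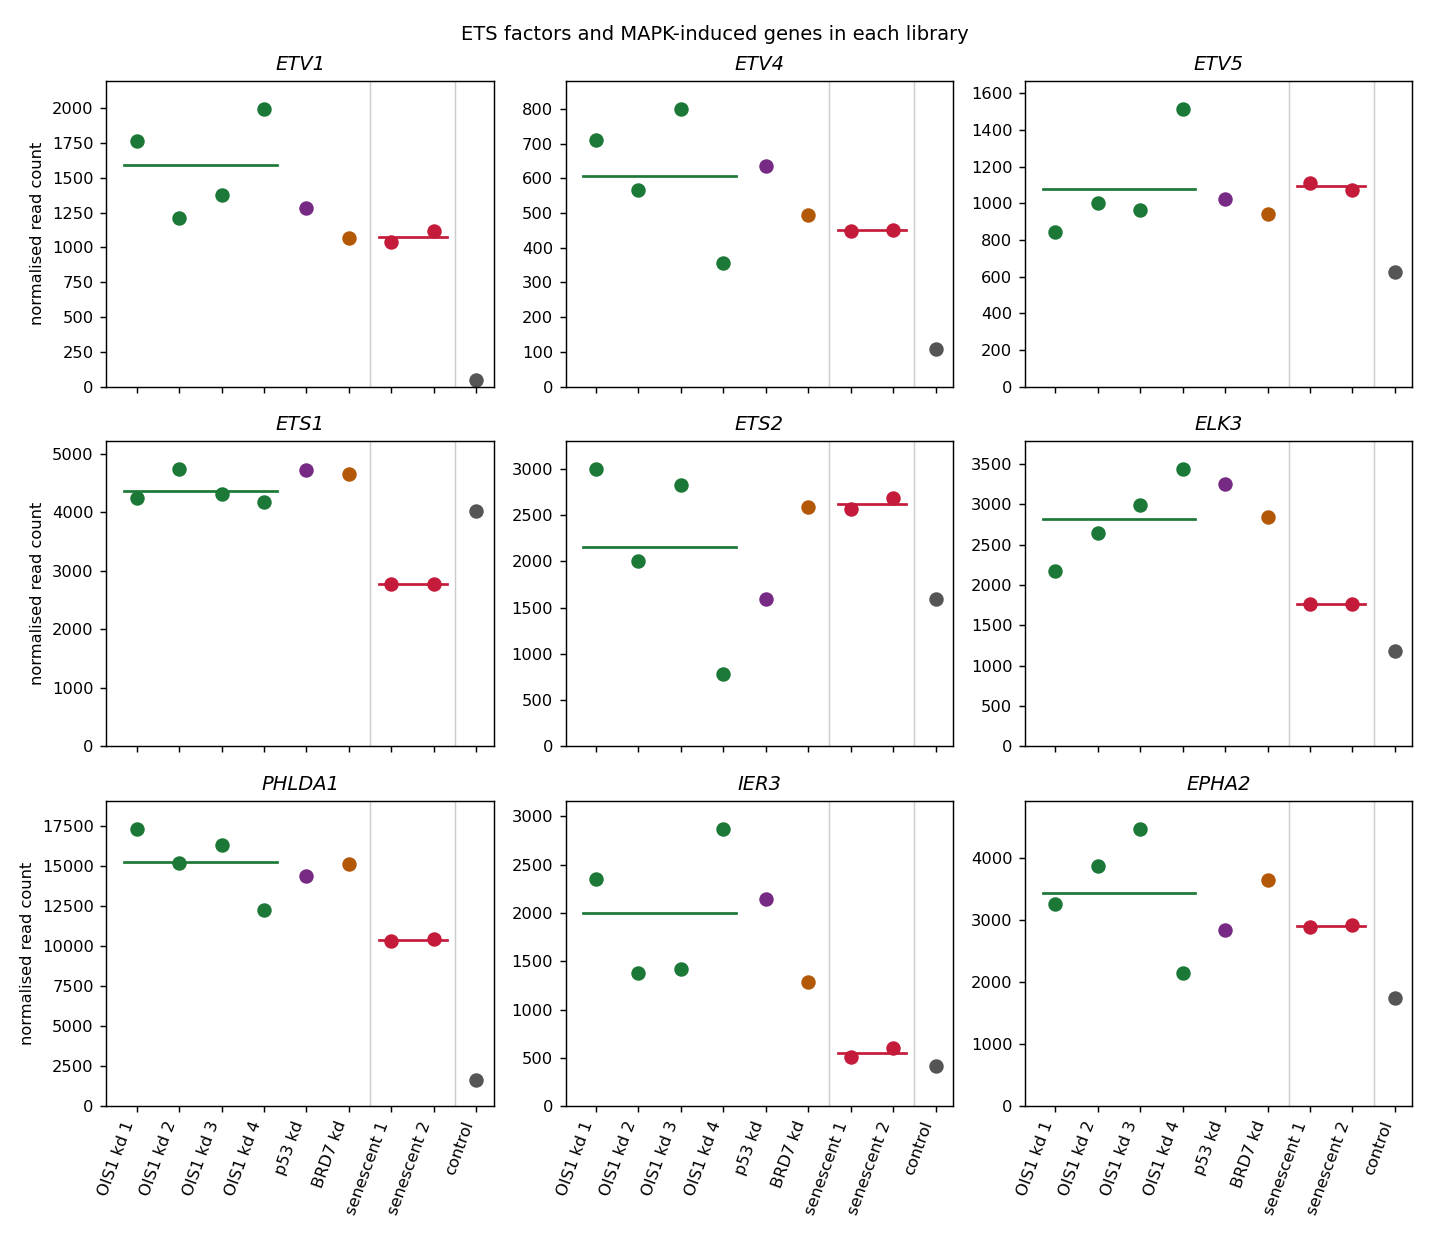
Normalised read count (linear axis from 0) of each of the 9 genes in each of the 9 libraries, with lncRNA-OIS1 knockdown (4), p53 knockdown (1), BRD7 knockdown (1), senescent (2) and control (1) libraries from left to right; lines mark the means of the lncRNA-OIS1 and senescent groups. ETV1 stands at 45.2 in the control and at 1036 or more in the 8 RAS libraries, while ETS1 is lowest in the 2 senescent libraries.

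ETV1 changed most. Its normalised read count was 1036 and 1114.7 in the senescent libraries, against 45.2 in the control, and it lay between 1064 and 1995.7 in the 6 knockdown libraries. The control therefore lay far below all 8 RAS libraries, near the floor of the table. The senescent level was 23.8-fold that of the control (log2 4.57, SE 0.31, limma adjusted p = 0.0019). As a place among the genes of its own library, ETV1 was at percentile 76.5 and 78.1 in the senescent libraries and at percentile 18.7 in the control.

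The other PEA3 genes followed with smaller differences. ETV4 stood at 447.8 and 452.2 in the senescent libraries, against 108.3 in the control, and it was 4.16-fold higher (log2 2.05, SE 0.47, limma adjusted p = 0.0436). ETV5 had 1111.4 and 1072.9 in the senescent libraries, against 625 in the control (log2 0.81, SE 0.34, limma adjusted p = 0.163). Both senescent libraries lay above the control for each gene, but ETV5 did not pass the test. Without lncRNA-OIS1 replicate 4, whose value of 1515.6 is the highest ETV5 level, ETV5 was called (adjusted p = 0.0187).

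PHLDA1, which encodes a protein with a pleckstrin homology-like domain, was the second large rise. It had 10318.1 and 10457 in the senescent libraries, against 1641.4 in the control, a 6.33-fold difference (log2 2.66, SE 0.22, limma adjusted p = 0.00325). The 6 knockdown libraries were higher still, at 12293.2 to 17352. The 4 genes EPHA2, ELK3, ETS2 and IER3, for which the 2 senescent values also exceeded the control value, were not called. EPHA2, a receptor tyrosine kinase for ephrin-A ligands, had 2882.1 and 2909.2 in the senescent libraries, against 1736.1 in the control (log2 0.74, SE 0.42, limma adjusted p = 0.273). ELK3 had 1761.2 and 1766.8, against 1181.7 in the control (log2 0.58, SE 0.26, limma adjusted p = 0.19). ETS2 had 2562.1 and 2679.6, against 1592.3 in the control (log2 0.72, SE 0.80, limma adjusted p = 0.581), and the lncRNA-OIS1 libraries spread widely (2151 ± 1009, SD, n = 4). IER3, an immediate early gene whose product is an ERK substrate linked to cell survival, had 505.7 and 607.7 in the senescent libraries, against 415.2 in the control (log2 0.42, SE 0.49, limma adjusted p = 0.603).

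ETS1 went the other way. It stood at 2765.2 and 2773.6 in the senescent libraries, against 4027.7 in the control, and it fell by 0.54 on the log2 scale (SE 0.11, limma adjusted p = 0.0344). The 2 senescent libraries were nearly equal and both lay below the control and below all 6 knockdown libraries. The calls of ETV1 and PHLDA1 held whichever replicate was left out (highest adjusted p = 0.0301 for ETV1 and 0.0443 for PHLDA1). ETV4 lost its call without senescent replicate 1 or 2 (adjusted p = 0.162 and 0.182) and without lncRNA-OIS1 replicate 1, 2 or 3 (0.0667, 0.0821 and 0.0515). ETS1 lost its call without senescent replicate 1 or 2 (0.157 and 0.173) and without lncRNA-OIS1 replicate 1 or 3 (0.0569 and 0.0559).

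**Figure D2:**
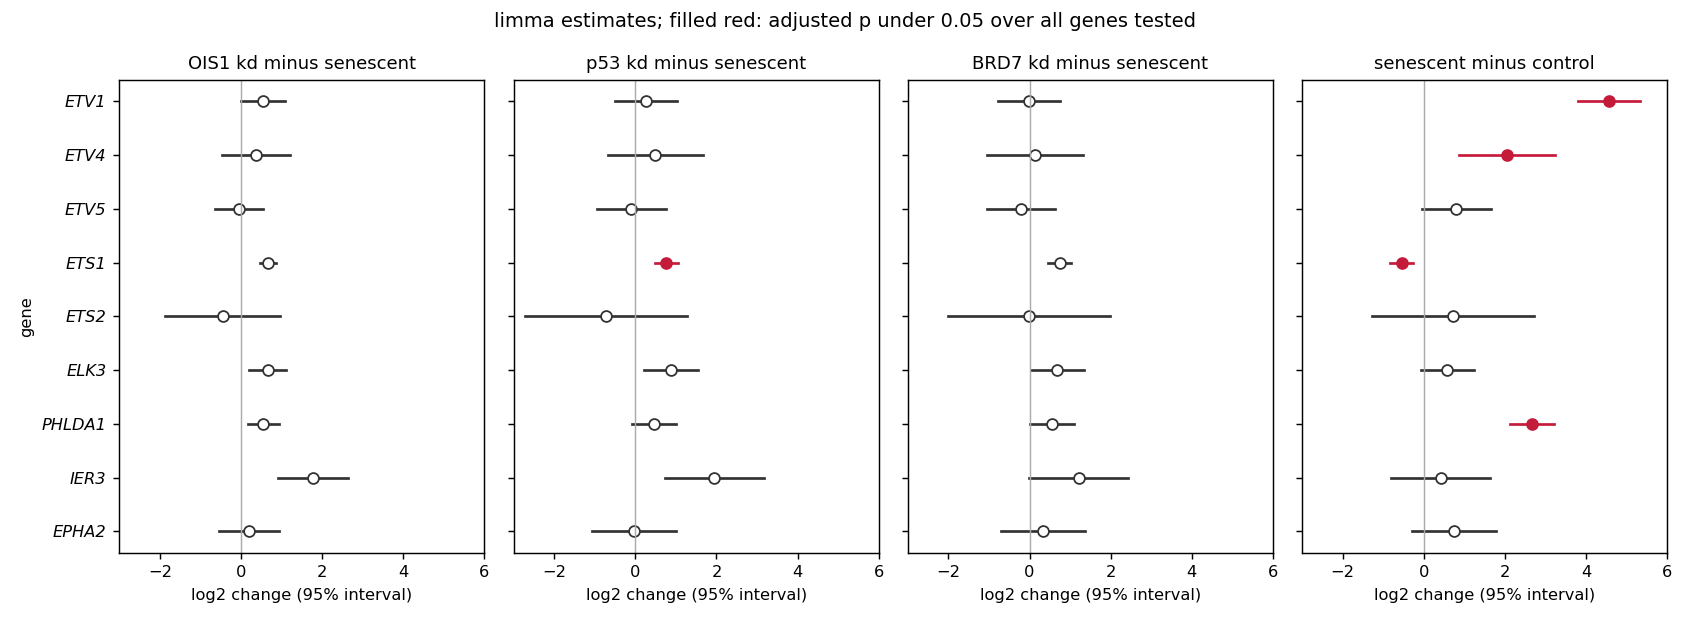
limma log2 changes with 95% intervals for the 9 genes in 4 comparisons (lncRNA-OIS1, p53 and BRD7 knockdown, each minus senescent, and senescent minus control); filled red points have an adjusted p under 0.05 over the 12481 genes tested. ETV1, PHLDA1, ETV4 and ETS1 are filled for senescent minus control, and ETS1 alone for p53 knockdown minus senescent.

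The mean of the 4 RAS groups, each weighted equally, was also set against the control. Knockdown groups carry most of the weight, so this mean mixes RAS activation with the knockdowns. In the senescent group alone, the log2 change from the control was 0.58 for ELK3 and 0.42 for IER3. ETV1 was 27.2-fold higher in the RAS groups than in the control (log2 4.77, limma adjusted p = 0.000887), PHLDA1 8.29-fold (log2 3.05, adjusted p = 0.00118), ETV4 4.94-fold (log2 2.30, adjusted p = 0.0251) and ELK3 2.19-fold (log2 1.13, adjusted p = 0.0334). These were the only members called, 4 of 9 where 13.9% of all genes were called, and all 4 were higher in the RAS groups (6.94% of all genes; 6.96% were lower). IER3 was 3.14-fold higher and just missed the threshold (log2 1.65, adjusted p = 0.0614). ETS1 had a log2 change of 0.0019 (95% interval −0.25 to 0.25), with knockdown libraries above the control and senescent libraries below it. Without lncRNA-OIS1 replicate 4 the count was 7 of 9, with ETV5, IER3 and EPHA2 added (adjusted p = 0.0213, 0.035 and 0.0277), while 27.8% of all genes were called. Without senescent replicate 1 or 2 or lncRNA-OIS1 replicate 2 the count was 2, as ETV4 (adjusted p = 0.0786, 0.0785 and 0.0572) and ELK3 (0.0949, 0.0964 and 0.0689) lost their calls. ELK3 also lost its call without lncRNA-OIS1 replicate 3 (0.0602).

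No member was called lower than in senescent cells after knockdown of lncRNA-OIS1, p53 or BRD7, and 1 was called higher, ETS1 with p53 knockdown (2.27% of all genes were called higher there and 1.57% lower). In 4 of the 9 genes, ETS1, ELK3, PHLDA1 and IER3, every one of the 6 knockdown libraries lay above both senescent libraries, an order shown by 14.7% of all genes tested. The reverse order was shown by none of the 9 and by 18.6% of all genes. Without lncRNA-OIS1 replicate 4, the remaining 5 knockdown libraries lay above both senescent libraries for 5 members, ETV4 being the fifth, and for 18.0% of all genes, and below both for ETV5 and 22.2% of all genes. All knockdown comparisons share the same 2 senescent libraries, so the values of each are given side by side.

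**Figure D3:**
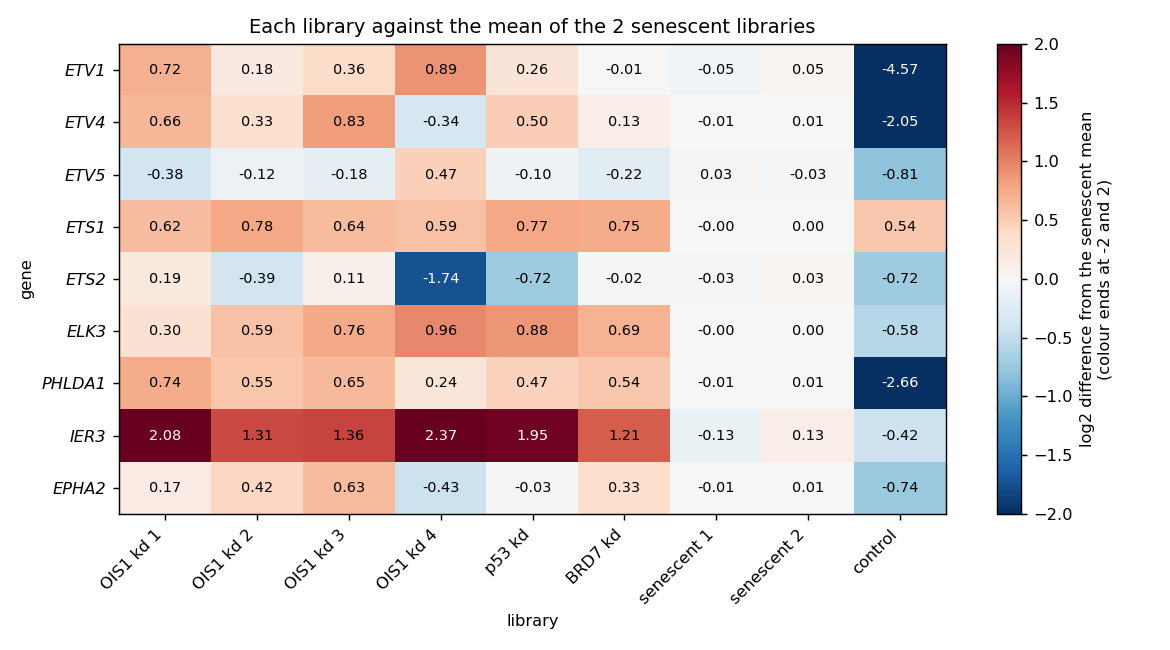
log2 difference of each library (columns: lncRNA-OIS1, p53 and BRD7 knockdown, senescent, control) from the mean log2 value of the 2 senescent libraries for the 9 genes (rows), with the value printed in each cell and the colour scale ending at −2 and 2. IER3 lies between 1.21 and 2.37 above the senescent mean in the 6 knockdown libraries, and ETS1 between 0.59 and 0.78.

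IER3 stood furthest above the senescent level in the knockdown libraries. It had 2351.8, 1377.9, 1418.4 and 2873.6 in lncRNA-OIS1 replicates 1 to 4, 2140.7 with p53 knockdown and 1283.2 with BRD7 knockdown, against 505.7 and 607.7 in the senescent libraries. The lowest knockdown library thus had more than double the higher senescent value of IER3, and the groups did not overlap. The fold over the senescent level was 3.44 with lncRNA-OIS1 hairpins (log2 1.78, SE 0.35, limma adjusted p = 0.0856), 3.86 with p53 knockdown (log2 1.95, SE 0.49, adjusted p = 0.08) and 2.31 with BRD7 knockdown (log2 1.21, SE 0.49, adjusted p = 0.362). None of the 3 passed the threshold, and without lncRNA-OIS1 replicate 4 the p53 difference did (adjusted p = 0.0444).

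ETS1 differed little between the knockdown libraries. Its values were 4247.9, 4741.3, 4306 and 4177.4 in lncRNA-OIS1 replicates 1 to 4, 4714 with p53 knockdown and 4644.3 with BRD7 knockdown, against 2765.2 and 2773.6 in the senescent libraries and 4027.7 in the control. All 6 knockdown libraries were therefore above the senescent libraries and also above the control. Senescent libraries below the control together with 6 knockdown libraries above the senescent ones were seen in 1 of the 9 members, ETS1, and in 11.1% of all genes. With p53 knockdown ETS1 rose 1.70-fold over the senescent level (log2 0.77, SE 0.11, limma adjusted p = 0.0467). With lncRNA-OIS1 hairpins it was 1.58-fold the senescent level (log2 0.66, SE 0.08, adjusted p = 0.0788), and with BRD7 knockdown 1.68-fold (log2 0.75, SE 0.11, adjusted p = 0.196). The p53 call was lost without senescent replicate 1 or 2 (adjusted p = 0.211 and 0.279) and without lncRNA-OIS1 replicate 1, 2 or 3 (0.0668, 0.061 and 0.0767). The lncRNA-OIS1 difference was called without replicate 4 (adjusted p = 0.0476).

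ELK3 and PHLDA1, like IER3, showed 3 steps, with the control lowest, the senescent libraries between and all knockdown libraries highest. The share of all genes with this order was not counted, so whether it is unusual cannot be said. Its parts were common, as 25.3% of all genes had all 8 RAS libraries above the control. All 6 knockdown libraries lay above both senescent ones for 14.7%. ELK3 had 2176.2, 2647.3, 2992.4 and 3441.9 in lncRNA-OIS1 replicates 1 to 4, 3248.4 with p53 knockdown and 2843.7 with BRD7 knockdown, against 1761.2 and 1766.8 in the senescent libraries. Its log2 changes were 0.65 (SE 0.19, limma adjusted p = 0.127), 0.88 (SE 0.26, adjusted p = 0.109) and 0.69 (SE 0.26, adjusted p = 0.339) for lncRNA-OIS1, p53 and BRD7 knockdown. PHLDA1 had 17352, 15227.7, 16309.8 and 12293.2 in lncRNA-OIS1 replicates 1 to 4, 14361.1 with p53 knockdown and 15131.3 with BRD7 knockdown, against 10318.1 and 10457 in the senescent libraries. The knockdown libraries of PHLDA1 did not overlap the senescent ones, and replicate 4 was the nearest to them. Its log2 changes were 0.55 (SE 0.15, limma adjusted p = 0.125), 0.47 (SE 0.22, adjusted p = 0.245) and 0.54 (SE 0.22, adjusted p = 0.359). Neither gene passed the threshold in any knockdown comparison.

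None of the PEA3 genes was called in any knockdown comparison. ETV1 had 1766.2, 1214.6, 1379.7 and 1995.7 in lncRNA-OIS1 replicates 1 to 4, 1285.6 with p53 knockdown and 1064 with BRD7 knockdown, against 1036 and 1114.7 in the senescent libraries. All but the BRD7 library lay above both senescent values (lncRNA-OIS1 log2 0.54, SE 0.22, limma adjusted p = 0.226). ETV4 had 710.7, 564.7, 800 and 355.9 in lncRNA-OIS1 replicates 1 to 4, 634.4 with p53 knockdown and 493.2 with BRD7 knockdown, against 447.8 and 452.2 in the senescent libraries. Replicate 4 was the only knockdown library below the senescent values of ETV4 (lncRNA-OIS1 log2 0.37, SE 0.34, limma adjusted p = 0.565). ETV5 had 842, 1004.3, 960.8 and 1515.6 in lncRNA-OIS1 replicates 1 to 4, 1021.9 with p53 knockdown and 940.4 with BRD7 knockdown, against 1111.4 and 1072.9 in the senescent libraries. Here replicate 4 was the only knockdown library above the senescent values, and the group difference was close to 0 (log2 −0.05, 95% interval −0.65 to 0.54, limma adjusted p = 0.921). The lowest knockdown value of each PEA3 gene was still above its control value.

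The SD among the lncRNA-OIS1 hairpins was 46.9% of the mean for ETS2, the largest of the 9 members, followed by 36.6% for IER3, 31.9% for ETV4 and 28.9% for EPHA2. ETS2 had 2998.4, 2004.2, 2818.2 and 784.2 in lncRNA-OIS1 replicates 1 to 4, 1595 with p53 knockdown and 2581.1 with BRD7 knockdown, against 2562.1 and 2679.6 in the senescent libraries and 1592.3 in the control. The groups overlapped, and replicate 4 lay below the control too (lncRNA-OIS1 log2 −0.46, SE 0.57, limma adjusted p = 0.683; p53 log2 −0.72, SE 0.80, adjusted p = 0.632). EPHA2 had 3261.9, 3867.7, 4467 and 2142.8 in lncRNA-OIS1 replicates 1 to 4, 2829.7 with p53 knockdown and 3635.7 with BRD7 knockdown, against 2882.1 and 2909.2 in the senescent libraries. Replicates 1 to 3 and the BRD7 library were above both senescent libraries of EPHA2, and replicate 4 and the p53 library below (lncRNA-OIS1 log2 0.20, SE 0.30, limma adjusted p = 0.732).

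Counted by test, 0 of 9 members were called with lncRNA-OIS1 knockdown, where 0% of all genes were called by limma. At an unadjusted p under 0.05 there were 4 of 9 members and 2805 genes (22.5%). Groups that did not overlap, with all 4 lncRNA-OIS1 libraries higher, were found for 5 members (ETV1, ETS1, ELK3, PHLDA1 and IER3) and for 17.1% of all genes, against 0 members and 21.5% of all genes with all 4 lower. With replicates 1 to 3 alone, 7 members were higher than both senescent libraries (23.0% of all genes) and ETV5 was lower (27.9%). With p53 knockdown 1 of 9 was called, ETS1, where 3.84% of all genes were, and 2.27% in the higher direction. With BRD7 knockdown 0 of 9 were called, where 0.00801% of all genes were, and 2 members and 1735 genes had an unadjusted p under 0.05. The median log2 change of the 9 members was 0.54, 0.47 and 0.33 with lncRNA-OIS1, p53 and BRD7 knockdown, beside −0.02, 0.00 and −0.02 over all genes tested. Without lncRNA-OIS1 replicate 4, the counts were 1 of 9 for lncRNA-OIS1 (ETS1, 1.31% of all genes), 2 of 9 for p53 (ETS1 and IER3, 17.2%) and 0 of 9 for BRD7 (0.0641%).

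The 3 knockdowns were also compared with each other. No member was called between lncRNA-OIS1 and p53 knockdown, between lncRNA-OIS1 and BRD7 knockdown or between p53 and BRD7 knockdown, where limma called 0.00801%, 0.00801% and 0.0160% of all genes, and 0 of 9 members had an unadjusted p under 0.05 in any of the 3. For ETS1 the 95% intervals of these log2 differences ran from −0.37 to 0.14, from −0.35 to 0.17 and from −0.30 to 0.35. For IER3 they were wider, from −1.28 to 0.95, from −0.54 to 1.69 and from −0.67 to 2.15, and each of them includes a 2-fold difference.

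LncRNA-OIS1 replicate 4 was the highest or the lowest of the 4 hairpins for all 9 members, which was so for 70.1% of all genes tested. Among these it was highest for ETV1, ETV5, ELK3 and IER3 (36.3% of all genes) and lowest for ETV4, ETS1, ETS2, PHLDA1 and EPHA2 (33.8%). ETS2 showed the largest gap, with 784.2 in replicate 4, 30.1% of the mean of replicates 1 to 3 (2607 ± 530, SD, n = 3). ETV4 stood at 51.4% of that mean and EPHA2 at 55.4%, while ETV5 was 1.62-fold and IER3 1.67-fold above it. The other replicates were the extreme of the 4 hairpins for 44.1%, 36.4% and 43.9% of all genes. Replicate 4 carries a single hairpin, so hairpin and culture cannot be told apart.

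The other genes of the pathway were counted against the same all-gene shares for senescent minus control, 7.95% higher and 7.10% lower. The lists overlap, so their counts are not independent. DUSP6 and PLAUR are in the lists of MAPK output and ETS targets, and EPHA4 is in those of MAPK output and of Eph receptors. PHLDA2 and IER2 are in those of MAPK output and of PHLDA and IER genes. Among 21 other MAPK output genes tested, 7 rose and 0 fell in the senescent libraries relative to the control, with a median log2 change of 1.09. The count that rose was 4 without senescent replicate 1 or 2 and 11, with 1 that fell, without lncRNA-OIS1 replicate 4, where 29.7% of all genes were called. Over the 4 RAS groups 12 of the 21 rose and 0 fell relative to the control (median log2 1.42), where 6.94% of all genes rose and 6.96% fell. That count was 5 without senescent replicate 1 or 2 and 15, with 1 that fell, without lncRNA-OIS1 replicate 4. SPRY4, a feedback inhibitor of the cascade, was at 6611 ± 184 in the senescent libraries (SD, n = 2), against 711.3 in the control (log2 3.22, limma adjusted p = 0.000338). SPRY2, of the same family, had a log2 change of 3.83 (adjusted p = 0.00182), and DUSP4, a phosphatase that inactivates ERK in the nucleus, 3.64 (adjusted p = 0.00211). These 3 and PHLDA2 were called with each replicate left out in turn (highest adjusted p = 0.0436, for PHLDA2). Of 12 tested genes reported as ETS targets 5 rose and 0 fell (6 and 2 without lncRNA-OIS1 replicate 4, 0 and 0 without senescent replicate 1 or 2), the lowest adjusted p belonging to DUSP6, a cytoplasmic ERK phosphatase (log2 2.99, adjusted p = 0.00978), MMP1, a collagenase (7.05, 0.0119), and SPP1, or osteopontin (5.21, 0.0148), whose control value of 30.2 lies near the floor. In the family of PHLDA and IER genes, PHLDA2 and IER5 rose by log2 1.73 and 0.71 (adjusted p = 0.00422 and 0.0345), 2 of 5 tested, and IER5 was called in 2 of 6 leave-outs.

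The calls in the 4 remaining lists were few, and none of them was called without senescent replicate 1 or 2. In the rest of the ETS family, 11 genes were tested and 0 rose, while ELF4 and ELF1 fell (log2 −1.18 and −2.54, limma adjusted p = 0.0156 and 0.0477; 3 fell without lncRNA-OIS1 replicate 4). ELF1 had 198.2 and 177.6 in the senescent libraries, against 1090.1 in the control, so that ETV1 and ELF1, of the same DNA-binding family, moved in opposite directions. Among 13 regulators and cofactors of ETS factors 0 rose and 3 fell (7 without replicate 4): MKL1, an SRF coactivator, by 1.29, EP300 by 0.69 and CREBBP by 1.11 on the log2 scale. CIC, the repressor of the PEA3 genes, had 919.9 and 918.4 in the senescent libraries, against 1096.1 in the control (adjusted p = 0.507). In the kinase cascade itself 2 of 24 genes rose, the adaptor gene SHC1 and RASA1, which encodes a GTPase-activating protein of RAS, and 0 fell (5 and 4 without replicate 4). Of 10 tested Eph receptors and ephrins other than EPHA2, 1 fell, EPHB3, at 20 and 22.2 in the senescent libraries, against 49.6 in the control (3 without replicate 4). Of 6 leave-outs, ELF1 and CREBBP kept their calls in 2 and EPHB3 in 1. ELF4, MKL1, EP300, SHC1 and RASA1 kept theirs in 4.

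**Figure D4:**
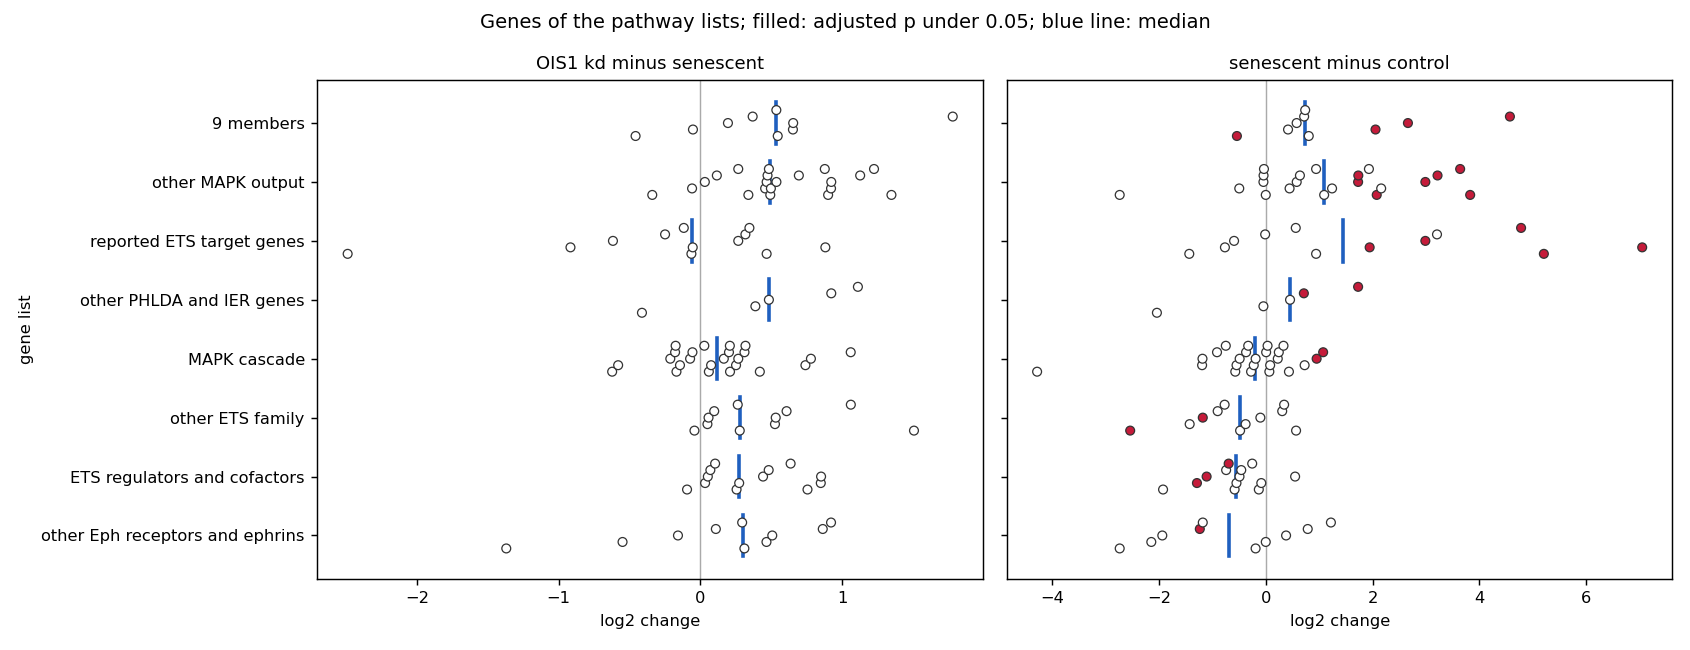
log2 change of the tested genes of each pathway list (rows) for lncRNA-OIS1 knockdown minus senescent (left) and senescent minus control (right); filled points have a limma adjusted p under 0.05 and blue lines are medians. No point is filled on the left, and on the right 7 of 21 other MAPK output genes are filled, all above 0.

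After knockdown of p53, IER2 rose over the senescent level, as did NRAS and RPS6KA5 in the cascade, while SHC1 fell. No other gene of these pathway lists was called, where 3.84% of all genes were. That was 1 of 21 MAPK output genes and 1 of 5 PHLDA and IER genes, both IER2. In the cascade 2 of 24 rose and 1 fell. The other lists gave 0 of 11 ETS family genes, 0 of 13 ETS regulators, 0 of 12 reported ETS targets and 0 of 10 Eph receptors and ephrins. The calls of all 4 genes lay close to the threshold. Each was lost with no variance trend and with senescent replicate 1 or 2 or lncRNA-OIS1 replicate 1, 2 or 3 left out (highest adjusted p = 0.279). Without lncRNA-OIS1 replicate 4, where 17.2% of all genes were called, the counts were 4 higher and 0 lower among MAPK output genes and 3 higher and 2 lower in the cascade. SHC1 had a log2 change of −1.20 (limma adjusted p = 0.0467). RPS6KA5, a nuclear kinase activated by ERK, had 91.3 with p53 knockdown, against senescent values of 27.7 and 20 (adjusted p = 0.0495), and since one senescent value is at the floor of the table its fold is a lower bound and is not given. IER2, an immediate early gene of the same naming series as IER3, had 1020.2 with p53 knockdown, against 440.4 and 419.7 in the senescent libraries (log2 1.25, SE 0.19, limma adjusted p = 0.0467). It stood at 709.6 to 962.7 with lncRNA-OIS1 hairpins and 623.2 with BRD7 knockdown, so that all 6 knockdown libraries were above both senescent ones, as for IER3. NRAS had 3490.2 with p53 knockdown, against 1907.7 and 1928.4 in the senescent libraries (log2 0.86, adjusted p = 0.0467), and 2187.9 in the control, the order seen for ETS1. With lncRNA-OIS1 or BRD7 knockdown no gene of these lists was called by limma, where 0% and 0.00801% of all genes were. Without lncRNA-OIS1 replicate 4 (1.31% of all genes called for lncRNA-OIS1), 1 gene was called higher in each of the lists of MAPK output, cascade, ETS regulators, and PHLDA and IER genes, and 0 with BRD7 knockdown. The list of MAPK output shares IER2 and PHLDA2 with that of PHLDA and IER genes. The median log2 change of the other MAPK output genes was 0.49, 0.41 and 0.00 with lncRNA-OIS1, p53 and BRD7 knockdown. For the genes reported as ETS targets it was −0.06, −0.52 and −0.19.

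Genes whose profile over the 9 libraries was most like that of each member were found by Pearson's r of log2 values. They came from 11889 tested genes with a symbol and are a description without a test. The 9 libraries fall in 5 groups, and the single control was the lowest library for 7 members, all but ETS1 and ETS2. ETV1 was most like STC1, MIR155HG and DOCK4 (r = 0.998, 0.996 and 0.994). ETV4 was most like PPTC7, TIPARP and SEMA3A (0.984, 0.984 and 0.98). ETV5 was most like GNL2, C1QBP and PDCD11 (0.984, 0.981 and 0.979). PHLDA1 was most like LRRC8C, DUSP4 and MLKL (0.99, 0.989 and 0.988), and ELK3 like NBPF10, SPOPL and MTFR1 (0.983, 0.977 and 0.967). Profiles closest to ETS1 were those of WDR34, TIMELESS and MMD (0.972, 0.972 and 0.971), and closest to ETS2 those of TMEM30A, PRRT3 and CLEC2D (0.971, 0.968 and 0.961). IER3 was nearest to HSP90B1, SRGAP2C and MDFIC (0.97, 0.965 and 0.964), and EPHA2 to CYP27B1, KIAA1107 and BIRC3 (0.971, 0.96 and 0.956). NBPF10 and SRGAP2C belong to families of near-identical copies, so their counts are uncertain.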

How the data were processed

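The authors deposited 1 signal per gene and library, a read count already normalised. The submitters' processing notes name TopHat2, HTSeq and hg19, without roles; versions and strandedness were not given in the sources used here. The floor of 20 (1375 genes at it in every library) and quantile normalisation are known from the table's name and values; differences in total RNA and depth are lost.

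Groups follow the sample labels. Log2 of the deposited values, with no pseudocount, was fitted for 12481 genes with a maximum of at least 40, with limma 3.58.1 in R 4.3.3: 5 groups, 4 residual degrees of freedom, variance trend, two-sided tests. A call is an adjusted p (Benjamini-Hochberg, all tested genes) under 0.05. Single-library groups borrow the spread of the replicated ones. An exact permutation test of 4 against 2 libraries has a minimum of 0.0667. The fit was also run on simulated data, with independent noise drawn from its own fitted variances. Those data hold no outlying hairpin, so the run cannot show how one affects the calls. Alternatives changed the pseudocount (10, 50), filter, scaling and trend, dropped each replicate, or added a replicate block.

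Members and lists were chosen with earlier results of these data known. Named genes are the members, up to 3 called genes per list and direction with the lowest adjusted p, and the 3 most similar profiles per member. The markers and CIC were named after their values were seen, and PLAUR and EPHA4 only because lists share them. Some genes of the lists are not reported here.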

Additional observations from a re-analysis of the deposited data

How the results depend on the processing

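The 4 members called in senescent against control libraries were also 4 with median-of-ratios scaling, and 2 to 5 when a replicate was left out. With lncRNA-OIS1 knockdown the count of 0 became 1 with no filter (ETS1, adjusted p = 0.049) and was 0 to 1 with a replicate left out. With p53 knockdown the count of 1 became 0 with no variance trend and was 0 to 2 with a replicate left out; the RAS groups against control gave 2 to 7. BRD7 knockdown and the 3 comparisons between knockdowns gave 0 throughout. Over all genes, leaving out a replicate gave 124 to 3704 calls against 1878 for senescent against control, 0 to 164 against 0 for lncRNA-OIS1, 0 to 2146 against 479 for p53, 0 to 8 against 1 for BRD7 and 428 to 3468 against 1735 for the RAS groups; 57 and 30 genes were called for lncRNA-OIS1 and BRD7 with no filter, and 2 for p53 and 1 for lncRNA-OIS1 with no variance trend. Between knockdowns, no filter gave 68, 23 and 69 genes for lncRNA-OIS1 against p53, lncRNA-OIS1 against BRD7 and p53 against BRD7, where 1, 1 and 2 were called.

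ETV4 in senescent against control missed the threshold with a pseudocount of 50 (log2 1.66, adjusted p = 0.0554) and no filter (0.055), and ETS1 with no variance trend (0.0533). IER3 in the RAS groups was called with a mean of at least 80 (0.0471). Signs changed only for the members and comparisons that follow, none of them called. With median-of-ratios scaling, the log2 change was 0.0061 for ETV1 with BRD7 knockdown and −0.056 for ETS1 in the RAS groups. With a replicate left out, ranges that crossed 0 were −0.067 to 0.038 for ETV1 and −0.054 to 0.011 for ETS2 with BRD7 knockdown, −0.0082 to 0.0071 for ETS1 in the RAS groups and −0.23 to 0.056 for ETV5 with lncRNA-OIS1 knockdown. For lncRNA-OIS1 minus p53 knockdown they were −0.28 to 0.11 for ETV4 and −0.13 to 0.15 for ETV5, and for lncRNA-OIS1 minus BRD7 knockdown −0.011 to 0.27 for ETV5, −0.14 to 0.082 for ELK3, −0.061 to 0.10 for PHLDA1 and −0.28 to 0.077 for EPHA2. The cause was not tested.

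The replicate numbers 1 and 2 shared by the senescent and lncRNA-OIS1 libraries name different hairpins, and same-numbered libraries did not deviate together (r = −0.07 and −0.10 over genes). With the replicate block, 0 members and 0 genes were called for lncRNA-OIS1 knockdown (ETS1 log2 0.70, adjusted p = 0.212). Depth is unknown, so which low values are noise cannot be said; ETV1 in the control lies near the floor.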
